A study of Mus musculus with 8 samples.

Results

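The sham-operated left ventricle was compared at 3 days and at 1 day after surgery in 4 of the 8 libraries of the study. These 4 were chosen by the surgery and day in the sample labels, and not by any measured value. Sham surgery left the left anterior descending coronary artery open. In the other 4 libraries that artery had been ligated to cause a myocardial infarction (MI), and ischemic tissue was taken at the same days. All mice were male C57BL/6 mice of 8-12 weeks, with 2 mice for each surgery and day as biological replicates. Neither a genetic change nor a drug is named in the labels. The tissue was the free wall of the left ventricle, frozen and ground to powder, and libraries of its total RNA were made after removal of ribosomal RNA and read from both ends. The columns of the count tables name the surgery and the day but not the mouse, so the libraries are called A and B within each day.

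The left ventricle pumps blood through cardiomyocytes, whose sarcomeres shorten when calcium leaves the sarcoplasmic reticulum and binds troponin. Cardiomyocytes take most of their ATP from mitochondria that oxidise fatty acids, so heart muscle is known for abundant RNA of contractile proteins, calcium pumps and the respiratory chain, the last encoded in part by the mitochondrial genome. Fibroblasts, endothelial cells and macrophages lie between the muscle cells. Opening the chest is an injury of its own, and sham hearts serve as the baseline for it.

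The 4 sham libraries held 18831791 to 20676514 counts, and 16720 to 19483 genes had at least 1 count. Library B of 1 day stood apart from the other 3 sham libraries. It had the most genes detected, and Gm26870, a predicted gene, took 15397 reads per 1e6 in the transcript tables against 134 to 461. It had reads in 762 of 1506 genes of smell, taste and pheromone receptors (50.6%), which the ventricle should lack, against 4.45% to 8.23% of these genes in the other 3 sham libraries. The receptor genes held 133 counts per 1e6 counts (CPM, scaled by the TMM method) in it and 58.6 to 73.7 in the others. Of the MI libraries, which enter the same fit, library B of 1 day had reads in 92.3% of these genes, 62298 reads per 1e6 of Gm26870 and the lowest total, 7382490 counts. The part of these differences in the results was not tested beyond leaving out each library. The 2 days were deposited in separate tables, so a difference between days cannot be told apart from one between tables. In bulk tissue, fewer cells of a type and less RNA per cell cannot be told apart either.

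Contractile and mitochondrial RNAs led the sham ventricle. Levels of different genes were compared per length, as TMM-scaled CPM per kilobase of the most used transcript, and averaged over the 4 libraries. Of the first 20 nuclear genes, 8 code for sarcomere proteins, 5 for the respiratory chain and 2 for calcium handling or ion channels. Mb codes for myoglobin, which stores oxygen in muscle. Its level per length was 11142 and 11205 in libraries A and B of 1 day, and 9442 and 9455 in those of 3 days. Both libraries of 3 days were thus lower, by less than the test could call (log2 fold change −0.24, SE 0.18, adjusted p = 0.711 in edgeR's quasi-likelihood test). Actc1, the cardiac actin of the thin filament, had 11358 and 9744 CPM per kilobase at 1 day and 6158 and 6894 at 3 days. Its groups did not overlap, with a log2 fold change of −0.69 (SE 0.21, edgeR adjusted p = 0.631).

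Next in level per length came Tpm1, the tropomyosin that lies along actin, with 10056 and 10002 CPM per kilobase at 1 day and 7068 and 6917 at 3 days. Myl2, the regulatory light chain of ventricular myosin, followed with 8825, 8311, 7227 and 6571 in libraries A and B of 1 day and A and B of 3 days. Myl3, the essential light chain of the ventricle, had 7308, 7029, 5629 and 5366 in the same order. The order of these genes was not sharp: the ranges of Mb, Actc1 and Tpm1 over the 4 libraries overlapped, as did those of Tpm1 and Myl2. Tnni3, the inhibitory troponin of the heart, and Myh6, the adult alpha myosin heavy chain, averaged 5154 and 4934 CPM per kilobase. Myh6 went from 6159 and 5719 to 3687 and 4173 (log2 fold change −0.60, SE 0.28, edgeR adjusted p = 0.631). Atp2a2, the calcium pump that refills the sarcoplasmic reticulum, averaged 4867, and its inhibitor Pln averaged 3460, with 3323 and 3671 at 1 day and 3680 and 3168 at 3 days. The 2 days overlapped for Pln, unlike for the pump, which had 5469 and 5315 against 4230 and 4453. Respiratory genes among the first 20 were Cox4i1, Cox7a1 and Cox8b of cytochrome oxidase and Atp5a1 and Atp5b of ATP synthase, with means of 2132 to 3286 CPM per kilobase.

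Across the first 20 genes, both libraries of 3 days were below both of 1 day for 17 and above both for 1, with a median log2 fold change of −0.36. Over all 15508 genes tested, 26.6% were below both and 18.6% above both. Among the first 100 genes by level per length, 34 belong to the respiratory chain, 17 to the sarcomere, 8 to fatty acid oxidation and 6 to the citric acid cycle, and 83 of the 100 were lower in both libraries of 3 days (median −0.34).

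**Figure D1:**
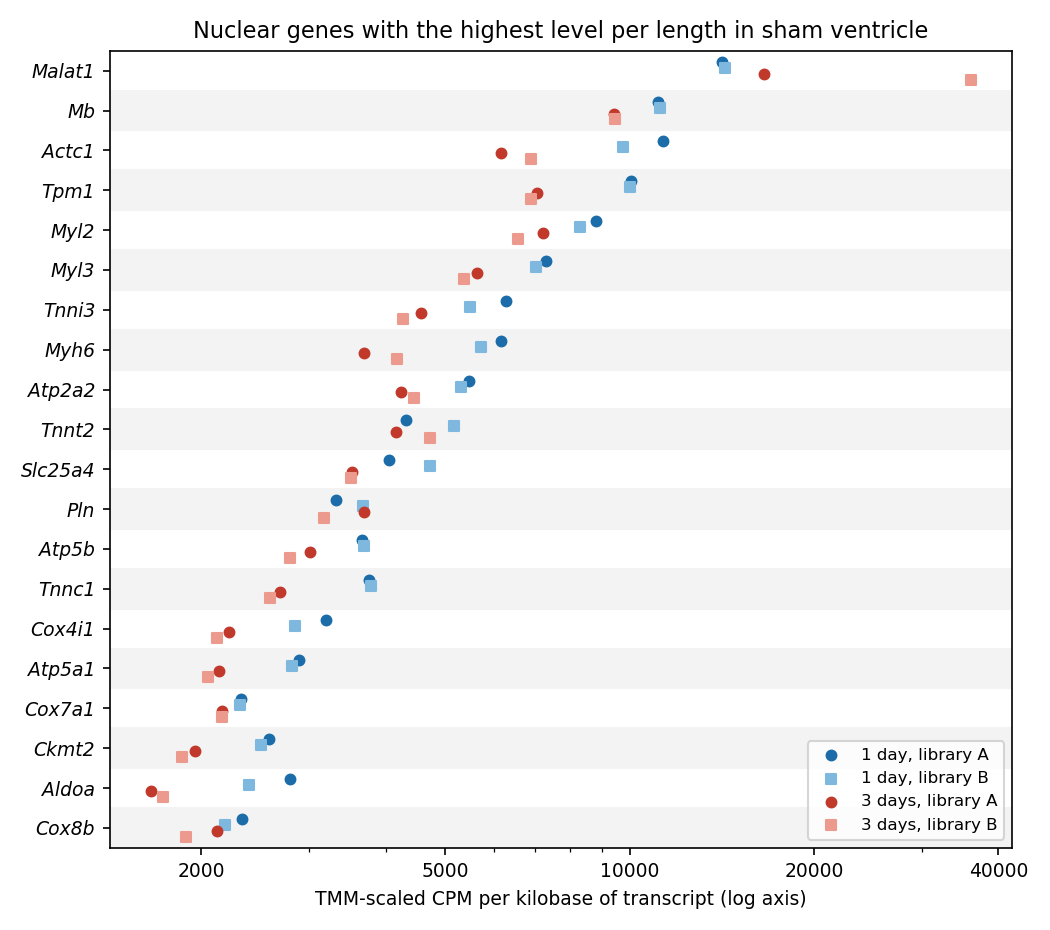
TMM-scaled CPM per kilobase of transcript (log axis) of the 20 nuclear genes with the highest mean, 1 point per library. The 2 libraries of 3 days (red) lie below both of 1 day (blue) for 17 genes and above both for Malat1; Tnnt2 and Pln overlap.

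Malat1, a long noncoding RNA kept in the nucleus, headed the list by this measure because the transcript tables hold only short models of it. With the longest of them, 656 bases, it averaged 20308 CPM per kilobase, and with the gene's RefSeq span of 6983 bases, a length chosen after the values were seen, it averaged 1908 and ranked 20. Its CPM was 9290 and 9396 at 1 day and 10892 and 23710 at 3 days, so that library B of 3 days stood apart. By CPM alone, which favours long genes, Ttn led with 78319 on average. Ttn codes for titin, the spring of the sarcomere, and took 7.43% and 6.14% of all counts at 1 day and 4.78% and 9.97% at 3 days. The 2 libraries of 3 days lay on either side of those of 1 day.

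Some RNAs of the count tables are short or repeated genes, whose values depend on how reads were assigned. Rn45s, the precursor of ribosomal RNA that depletion is meant to remove, still held 19470 and 24372 CPM at 1 day and 13470 and 10599 at 3 days. Rpph1, the RNA of ribonuclease P, held 9572, 8398, 7359 and 3984 CPM. Gapdh, a glycolytic enzyme with many processed pseudogenes, had 71 to 162 counts in the count tables but 6587 to 10065 reads in the transcript tables of the same sham groups. Fabp3, the fatty acid binding protein of heart muscle, had 10801 to 12803 counts against 31353 to 39616 transcript reads. The level of such genes in the count tables is uncertain.

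RNAs of the mitochondrial genome, absent from the count tables, were read in the transcript tables, where they took 15.04% and 13.9% of reads at 1 day and 16.6% and 15.7% at 3 days. The exact binomial 95% interval was 16.54% to 16.58% for library A of 3 days and about as narrow for the others, and it covers counting error only. An exact permutation test of 2 against 2 cannot go below p = 0.33. In these tables, reads per length were scaled to a sum of 1e6 over all genes. The top of the list was mt-Co1, a subunit of cytochrome oxidase, with 109679 and 87418 at 1 day and 100255 and 97783 at 3 days. Then came mt-Co3 of the same complex, with 38993, 34429, 40740 and 35864. The days overlapped for both. The ATP synthase subunit mt-Atp6 had 18844 and 21034 at 1 day and 26839 and 29484 at 3 days. Of the 13 mitochondrial genes, 10 were higher in both libraries of 3 days and 0 were lower in both, against 33.1% and 13% of all 14567 genes tested in these tables. None of the 13 passed edgeR's test on the reads, with adjusted p from 0.710 to 0.973. The nuclear genes in these tables were headed by Myl2 and Mb, at 15795 and 13178 on average.

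**Figure D2:**
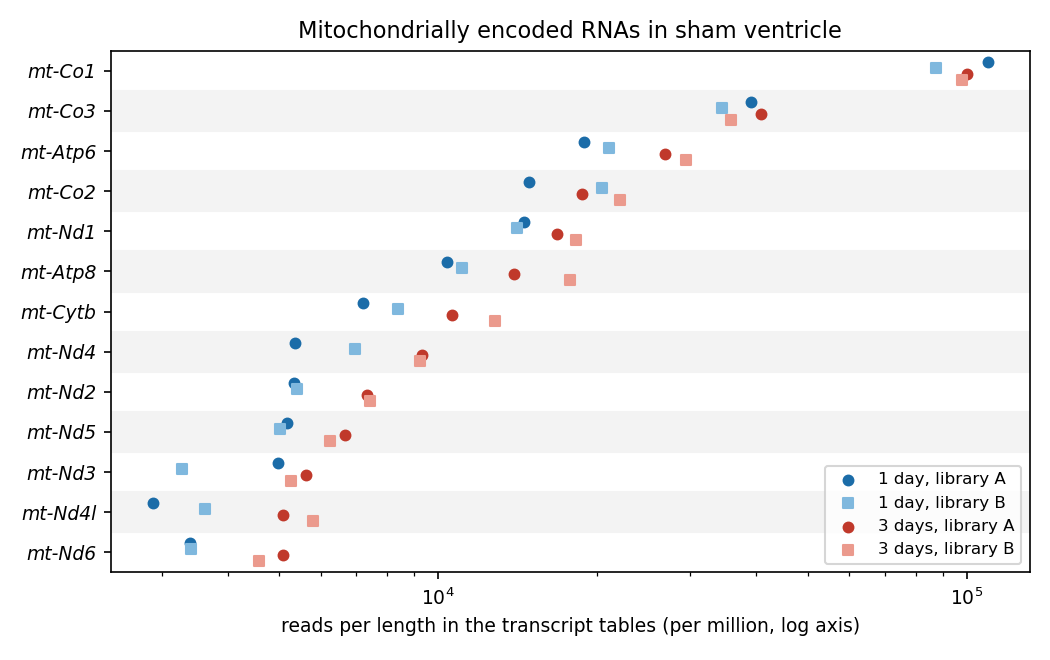
Reads per length, scaled to a sum of 1e6 (log axis), of the 13 mitochondrially encoded RNAs, 1 point per sham library. mt-Co1 and mt-Co3 overlap between days, and mt-Atp6 is higher in both libraries of 3 days (red) than in both of 1 day (blue).

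No gene passed the test of 3 days against 1 day. In edgeR's quasi-likelihood test over 15508 genes, fitted to all 8 libraries, 0 genes (0% of those tested) had an adjusted p under 0.05, while 1211 (7.81%) had an unadjusted p under 0.05, 580 of them higher (3.74%) and 631 lower (4.07%) at 3 days. The unadjusted count was 304 without library A and 721 without library B of sham 1 day, and 2449 or 2568 without library A or B of MI 1 day. The smallest adjusted p was 0.366. Other tools gave from 0 to 117 calls. limma-voom called 0, edgeR on the 4 sham libraries alone called 1 (Myl7, lower at 3 days, 0.00722% of its 13855 genes), DESeq2 on all 8 called 20 higher (0.353%) and 40 lower (0.705%) genes of 5672, and DESeq2 on the 4 sham libraries called 54 higher (0.396%) and 63 lower (0.462%) of 13643. The fit of DESeq2 to the 4 sham libraries was added after the data were seen. DESeq2 values given by gene below are from it unless all 8 libraries are named. The 2 DESeq2 fits had 35 called genes in common, and the fit of 8 gave no adjusted p for Myl7, Myl4 or Aldh1l1. The 2-sided edgeR 95% interval lay within a 2-fold change for 8588 genes (55.4%), and for 8329 of the 10587 genes (78.7%) that averaged 5 CPM or more.

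The spread between the libraries of 3 days lay within the range of the differences between days, and that of 1 day lay below it. Over those 10587 genes, the standard deviation of the log2 ratio was 0.30 between the 2 libraries of 1 day and 0.43 between those of 3 days. Between days it ran from 0.38 to 0.50. The lowest of these, between library B of 1 day and library A of 3 days, was below the spread within 3 days.

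The direction of a gene followed its level. Both libraries of 3 days were above both of 1 day for 2891 genes (18.6%) and below both for 4130 (26.6%), and the median log2 fold change over all genes was −0.01. Among the 267 genes over 500 CPM, 74.2% were lower in both libraries and 1.12% higher in both, with a median of −0.32. Among the 2416 genes of 1 to 5 CPM, 11.2% were lower in both and 27.2% higher in both, with a median of 0.25. Scaling by library size alone moved the median of all genes from −0.01 to 0.18, so the lists below are given beside these values.

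**Figure D3:**
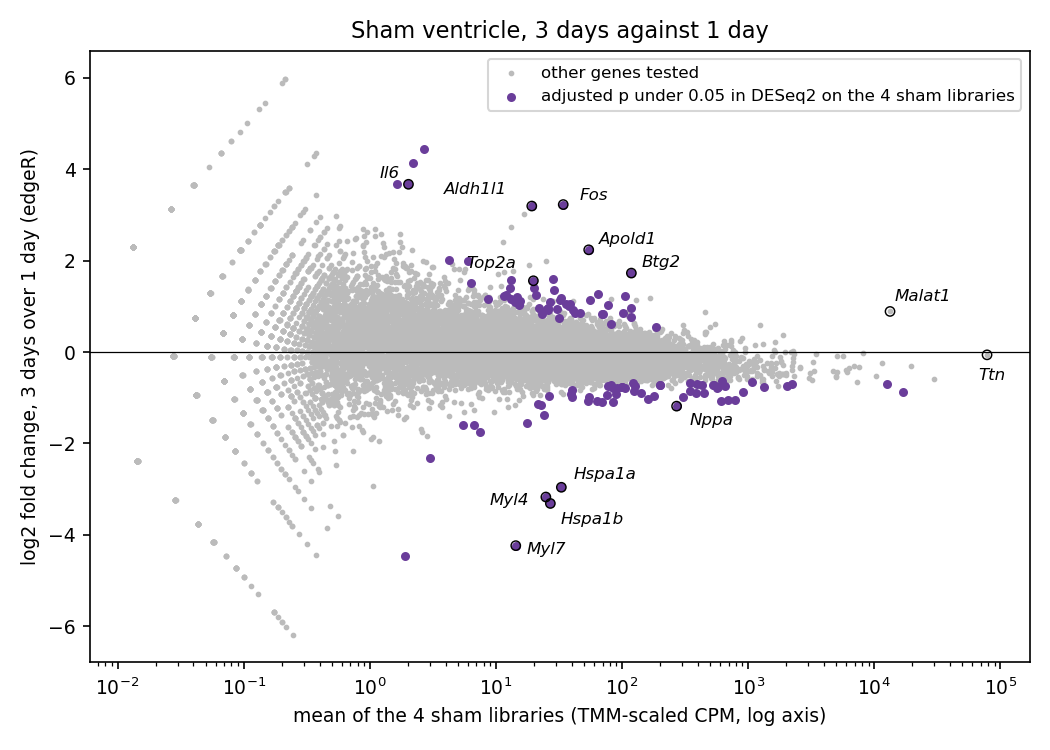
Log2 fold change of 3 days over 1 day (edgeR) against the mean of the 4 sham libraries in TMM-scaled CPM (log axis), 1 point per gene. Purple points are the 117 genes with an adjusted p under 0.05 in DESeq2 on the 4 sham libraries, none of which passed edgeR's test; most genes over 500 CPM lie below 0.

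Sarcomere genes were lower in both libraries of 3 days for 19 of 27 members (70.4%) and higher in both for 2 (7.41%). These shares were 26.6% and 18.6% over all genes tested, and 74.2% and 1.12% over genes above 500 CPM. The median log2 fold change of the list was −0.34, near that of all genes over 500 CPM. The list took 17.6% and 15.9% of counts at 1 day and 12.9% and 18.2% at 3 days, with the 3-day libraries on either side. Of these shares, Ttn alone held 7.43% and 6.14% at 1 day and 4.78% and 9.97% at 3 days. Acta1, the actin of skeletal muscle and of the fetal heart, had 434 and 374 CPM at 1 day and 175 and 235 at 3 days. Its log2 fold change was −0.98. Actn2, the alpha-actinin that anchors actin at the Z disc, had 2773 and 2333 against 1517 and 1527 CPM. Both members were well separated between days. Myh7, the slow beta myosin chain that rises in stressed ventricles, overlapped, with 712 and 577 against 661 and 690 CPM. The higher members were Nexn, a Z disc protein, at 166 and 316 against 346 and 384 CPM, and Myh7b at 74.7 and 80.8 against 86.5 and 200 CPM.

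Most lists of energy supply showed the same direction. For comparison, 26.6% of all genes tested, 50.4% of those of 100 to 500 CPM and 74.2% of those over 500 CPM were lower in both. The medians of these sets were −0.01, −0.17 and −0.32. Of 70 nuclear genes of the respiratory chain, 60 were lower in both libraries of 3 days and 0 were higher in both (median −0.33). For the citric acid cycle and pyruvate dehydrogenase these counts were 22 and 0 of 28 (median −0.35), for fatty acid uptake and oxidation 25 and 0 of 37 (median −0.25), and for glycolysis and glycogen 22 and 1 of 29 (median −0.48). The medians of these 4 lists stayed negative under library size alone, at −0.13, −0.16, −0.06 and −0.28. For ketone and branched-chain amino acid use, 9 of 20 were lower in both and 0 higher in both, and the median of −0.14 turned to 0.05 under library size alone. Ldha, the muscle lactate dehydrogenase, had 683 and 651 CPM at 1 day and 397 and 412 at 3 days, and Aldoa, the muscle aldolase, had 4209 and 3610 against 2498 and 2617. Ogdh, a rate-limiting dehydrogenase of the citric acid cycle, had 3880 and 3436 against 2622 and 2311 CPM. The 2 days did not overlap for any of these 3 genes, unlike for Cox7b of cytochrome oxidase, with 500 and 621 against 654 and 535 CPM. Pdk4, the kinase that shuts off pyruvate dehydrogenase during fasting, had 810 and 459 CPM at 1 day and 459 and 543 at 3 days, so that its difference rested on library A of 1 day.

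Calcium handling and ion channel genes were lower in both libraries for 24 of 39 members and higher in both for 1 (median −0.37, and −0.18 under library size alone). Of all genes tested, 26.6% were lower in both and 18.6% higher in both. Hcn4, the pacemaker channel, had 9.39 and 6.50 CPM at 1 day and 3.05 and 3.29 at 3 days. Cntn2, a marker of the Purkinje fibres that conduct the impulse, had 9.27 and 7.19 against 2.83 and 2.60. Both were lower in both libraries of 3 days. In the list of conduction and valve markers this held for 5 of 12 tested members, and its median of −0.16 turned to 0.03 under library size alone.

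Atrial markers stood lowest among the lists with at least 10 tested members. Of 12 tested members, 8 were lower in both libraries of 3 days and 0 were higher in both, with a median log2 fold change of −0.90 (−0.71 under library size alone, and −0.92 to −0.76 without 1 sham library). Over all genes tested, 26.6% were lower and 18.6% higher in both. Myl7 codes for the regulatory light chain of atrial myosin and lies at chr11:5896637-5898782 in GRCm38.p6. It had 30.0 and 24.5 CPM at 1 day and 1.497 and 1.382 CPM at 3 days, or 518, 427, 28 and 26 counts. The log2 fold change was −4.24 (SE 1.13), with an adjusted p of 0.631 in edgeR's fit of 8 libraries and 7.98e-30 in DESeq2 on the 4 sham libraries. Myl4, the essential light chain of the atrium (chr11:104546017-104587215), had 53.4 and 36.2 against 5.83 and 4.09 CPM (log2 −3.17, SE 0.93, edgeR adjusted p = 0.631, DESeq2 1.82e-22). In both genes every library of 1 day lay well above every library of 3 days.

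Further atrial genes gave smaller differences in the same direction. Nppa, the hormone ANP that is made mainly in the atria and again in stressed ventricles (chr4:148000722-148002074), had 348 and 404 CPM at 1 day and 144 and 187 at 3 days. Its log2 fold change was −1.18 (SE 0.23), with adjusted p of 0.631 in edgeR and 9.64e-06 in DESeq2 on the sham libraries. Sln, sarcolipin, the atrial inhibitor of the calcium pump, had 6.09 and 3.85 against 1.28 and 0.691 CPM. Nppb, the related hormone BNP of the ventricle and no member of the atrial list, overlapped, with 404 and 383 against 507 and 316 CPM. Among members that did not separate the days were Gja5, a connexin of atrium and conduction system, with 7.19 and 9.89 against 9.63 and 6.11 CPM, and Kcnj3, a potassium channel, with 72.4 and 65.0 against 49.2 and 66.6. The summed level of the list was 603 and 625 CPM at 1 day and 282 and 320 at 3 days. Bmp10, an atrial ligand, was at 0 or 1 count in all 4 libraries. In the MI libraries, Myl7 was at 0.162 and 32.6 CPM at 1 day and at 0.287 and 0.238 at 3 days. At 1 day it was thus high in library B only, the MI library with reads in 92.3% of the receptor genes and the lowest total. Whether the dissected pieces differed in atrial tissue between days was not tested.

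The 250 bases before the start of 3 of these heart genes are shown because Nppa and Myl7 separated the days and Actc1 was the most abundant actin. They come from RefSeq on GRCm38.p6 (Actc1 chr2:114052876-114053125, minus strand; Nppa chr4:148000472-148000721, plus strand; Myl7 chr11:5898783-5899032, minus strand). Capitals mark a CArG box, the site of serum response factor, in Actc1 and Myl7 and a TATA box, TATAAA, in Nppa.
Actc1: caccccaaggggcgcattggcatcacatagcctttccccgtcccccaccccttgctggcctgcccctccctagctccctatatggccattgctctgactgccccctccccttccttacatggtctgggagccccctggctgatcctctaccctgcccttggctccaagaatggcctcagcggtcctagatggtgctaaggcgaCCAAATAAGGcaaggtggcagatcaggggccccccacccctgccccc
Nppa: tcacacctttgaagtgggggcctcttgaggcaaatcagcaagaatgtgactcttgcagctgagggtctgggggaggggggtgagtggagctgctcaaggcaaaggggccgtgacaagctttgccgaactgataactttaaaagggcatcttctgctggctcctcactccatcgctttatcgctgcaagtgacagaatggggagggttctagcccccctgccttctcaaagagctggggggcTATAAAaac
Myl7: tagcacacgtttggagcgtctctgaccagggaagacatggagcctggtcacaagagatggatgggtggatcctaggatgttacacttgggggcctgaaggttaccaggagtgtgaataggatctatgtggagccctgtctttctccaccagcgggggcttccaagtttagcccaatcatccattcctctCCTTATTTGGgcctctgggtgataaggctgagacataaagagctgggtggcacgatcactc
Read on both strands of this window, and at the first start listed for each gene, a CArG box was found in 5 of 22 sarcomere promoters (22.7%), in 1 of 8 promoters of atrial markers, in 1.14% of the 11388 promoters of genes tested and in 1.4% of all 27025 promoters of the table. TATAAA was found in 1 of 22 sarcomere promoters (4.55%), in 7.06% of the promoters of genes tested and in 13% of all. A match of letters does not show that a factor bound there.

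Heat shock and chaperone genes were lower in both libraries of 3 days for 27 of 32 members and higher in both for 0, with a median log2 fold change of −0.45 (−0.26 under library size alone). It ran from −0.49 to −0.44 when 1 sham library at a time was left out. For comparison, 36.3% of genes of 20 to 100 CPM and 50.4% of those of 100 to 500 CPM were lower in both. Hspa1b and Hspa1a are stress-induced copies of the chaperone Hsp70. Hspa1b (chr17:34956429-34959238) had 64.2 and 34.0 CPM at 1 day and 3.10 and 6.75 at 3 days (log2 −3.31, SE 0.67, edgeR adjusted p = 0.631, DESeq2 on the sham libraries 6.14e-16). Hspa1a (chr17:34969359-34972156) had 82.0 and 35.1 against 4.65 and 10.4 CPM (log2 −2.96, SE 0.66, edgeR adjusted p = 0.631, DESeq2 0.0371). Library A of 1 day was the highest in both genes. Reads of such near-identical copies may be split or dropped in counting, so their shares are uncertain, but the transcript tables gave 908 and 445 reads of Hspa1a against 52 and 113.

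The promoters of the pair are shown to mark how alike they are: 247 of 250 bases were identical. They are from RefSeq on GRCm38.p6 (Hspa1a chr17:34972157-34972406; Hspa1b chr17:34959239-34959488; both on the minus strand). Capitals mark GAANNTTC, the core of a heat shock element, which is its own reverse complement.
Hspa1a: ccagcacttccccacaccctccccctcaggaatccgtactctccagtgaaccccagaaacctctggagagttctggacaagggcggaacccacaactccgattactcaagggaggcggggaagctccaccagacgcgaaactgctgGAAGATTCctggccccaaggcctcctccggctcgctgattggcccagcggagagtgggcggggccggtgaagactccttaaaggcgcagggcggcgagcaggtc
Hspa1b: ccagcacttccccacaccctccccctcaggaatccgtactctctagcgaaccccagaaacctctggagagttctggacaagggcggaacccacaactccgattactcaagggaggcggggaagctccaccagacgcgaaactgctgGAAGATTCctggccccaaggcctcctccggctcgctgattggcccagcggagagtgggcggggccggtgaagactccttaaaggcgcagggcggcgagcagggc
This core was found in 5 of 25 promoters of the heat shock list (20%), in 0 of 22 sarcomere promoters, in 5.05% of the promoters of genes tested and in 6.78% of all promoters. Its presence in a promoter does not show use.

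Other chaperones differed less between days. Hspb1, a small heat shock protein of the Z disc, had 266 and 164 CPM at 1 day and 111 and 101 at 3 days (log2 −1.02). Hsp90ab1, the constitutive Hsp90 and the most abundant of the list by CPM, had 2840 and 2636 against 1735 and 1642 (log2 −0.70, SE 0.20, edgeR adjusted p = 0.631). Its DESeq2 adjusted p was 0.0117 on the sham libraries and 0.0563 on all 8 libraries. Cryab, a lens crystallin that guards desmin in muscle, had 1732 and 1450 against 958 and 1075. All 3 were lower in both libraries of 3 days. From the endoplasmic reticulum, the chaperone Hspa5 had 1657 and 1507 against 1153 and 861 CPM and the stress-induced Manf had 117 and 84.8 against 64.4 and 39.96. Exceptions were Dnajb1, a partner of Hsp70, with 21.2 and 46.4 against 30.4 and 47.7 CPM, and Hspd1, the mitochondrial Hsp60, with 272 and 334 against 274 and 286.

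Cell cycle genes were higher in both libraries of 3 days for 26 of 41 members and lower in both for 2, with a median log2 fold change of 0.76 (0.96 under library size alone, and 0.56 to 0.95 without 1 sham library). Most were low: 30 of 41 were under 10 CPM on average, and in genes of 1 to 5 and of 5 to 20 CPM 27.2% and 22.5% were higher in both. Mki67, a protein found in dividing nuclei, had 11.2 and 21.1 CPM at 1 day and 48.8 and 34.6 at 3 days. Top2a, the topoisomerase that untangles chromosomes before division, had 5.85 and 14.2 against 34.7 and 24.5 CPM (log2 1.56, SE 0.44, edgeR adjusted p = 0.631). Its DESeq2 adjusted p was 0.00357 on the sham libraries and 0.369 on all 8 libraries. Tyms, which makes thymidylate for DNA, had 1.91 and 2.41 against 5.19 and 5.15. In all of these the libraries of 3 days were higher, with library A of 1 day the lowest. Birc5, the mitotic survival protein survivin, had 0.290 and 0.402 against 2.57 and 1.65 CPM. The subunits of the MCM helicase, which is loaded on DNA before replication, gave no common direction. Mcm4 was higher in both libraries of 3 days, with 11.77 and 14.4 against 18.2 and 14.8 CPM, and Mcm7 was lower in both, with 8.64 and 8.62 against 7.81 and 7.49. Mcm2, Mcm3, Mcm5 and Mcm6 overlapped, as did the sliding clamp Pcna, with 25.2 and 32.1 against 32.9 and 22.1. Ccnd1, a cyclin of the G1 phase, overlapped as well, with 60.6 and 61.2 against 65.1 and 49.0.

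**Figure D4:**
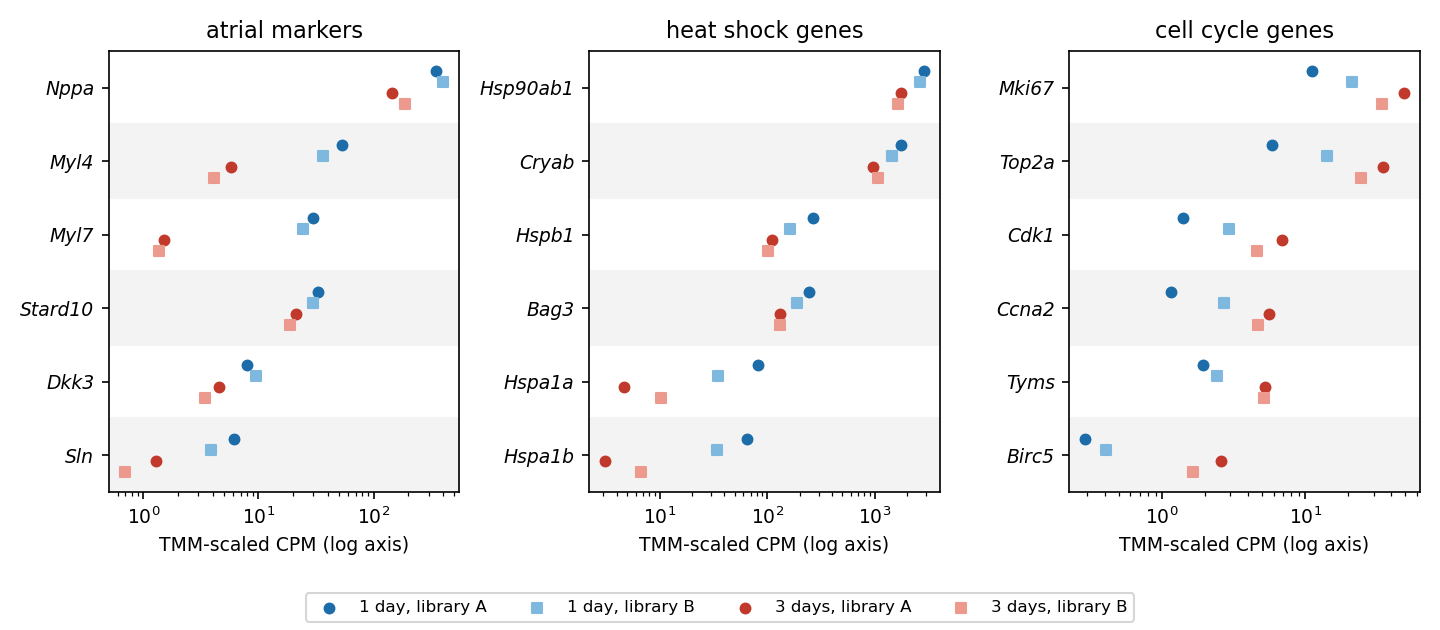
TMM-scaled CPM (log axis) of 6 atrial markers, 6 heat shock genes and 6 cell cycle genes, 1 point per sham library. The libraries of 3 days (red) lie below both of 1 day (blue) for all atrial and heat shock genes drawn and above both for all cell cycle genes drawn; these genes were picked for the drawing after their values were seen.

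Immediate early genes were higher in both libraries of 3 days for 10 of 25 members and lower in both for 2, with a median of 0.76 that ranged from 0.24 to 1.21 when 1 sham library was left out. Among all genes tested, 18.6% were higher and 26.6% lower in both. Library A of 3 days carried most of the difference in this list: its summed level was 894 and 760 CPM at 1 day and 1768 and 1022 at 3 days. Fos, a subunit of the AP-1 factor induced within minutes of stimulation, had 5.97 and 7.19 CPM at 1 day and 97.3 and 26.2 at 3 days (log2 3.23, SE 1.00, edgeR adjusted p = 0.631). Its DESeq2 adjusted p was 0.0295 on the sham libraries and 0.184 on all 8 libraries. Egr1, a factor induced in the same way, had 3.999 and 3.33 against 56.5 and 2.76, so that only library A of 3 days was high. Btg2, an inhibitor of proliferation, had 60.2 and 49.7 against 245 and 120 CPM (log2 1.73, DESeq2 adjusted p = 1.91e-07). Klf2, a factor of endothelium under flow, had 15.2 and 12.8 against 55.1 and 30.2. Apold1, an early response gene of endothelium, is not in the list and had 19.8 and 18.2 against 130 and 50 CPM (log2 2.24, DESeq2 adjusted p = 8.13e-09). Each of these 3 was higher in both libraries of 3 days and highest in library A.

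Cytokine and chemokine genes were mostly low, with a higher median at 3 days of 0.67, from 0.12 to 1.30 without 1 sham library. Of 35 members tested, 13 (37.1%) were higher in both libraries of 3 days and 2 lower in both. In genes under 1 CPM and of 1 to 5 CPM, 20.8% and 27.2% were higher in both. The summed level of the list overlapped between days, with 449 and 530 CPM at 1 day and 734 and 489 at 3 days. Il6, an inflammatory cytokine, had 0.174 and 0.402 CPM at 1 day, from 3 and 7 counts, and 4.97 and 2.55 at 3 days, from 93 and 48 counts (log2 3.67, SE 1.04, edgeR adjusted p = 0.631, DESeq2 on the sham libraries 0.00164). Cxcl1, which attracts neutrophils, had 1.80 and 5.06 against 38.1 and 7.86 CPM, and Spp1, osteopontin of macrophages and fibroblasts, had 4.12 and 15.8 against 41.02 and 38.6. Library B of 1 day lay nearer to 3 days in Spp1 than library A did. Neutrophil markers did not share this direction, with 2 of 22 (9.09%) higher in both and 5 (22.7%) lower in both. The shares over all genes tested were 18.6% higher and 26.6% lower in both. S100a9, a calcium-binding protein of neutrophils, had 70.0 and 58.7 against 99.2 and 45.1 CPM.

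Genes of the matrix split, with shares near those of all genes tested. Of 38 members tested, 9 (23.7%) were higher in both libraries of 3 days and 10 (26.3%) lower in both. Over all genes tested these shares were 18.6% and 26.6%. The median of the list, −0.08, turned to 0.11 under library size alone. Cthrc1, a secreted protein of activated fibroblasts, had 0.290 and 0.172 CPM at 1 day and 2.41 and 3.67 at 3 days. Lox, which cross-links collagen, had 17.3 and 17.8 against 35.6 and 32.6, and Postn, periostin of activated fibroblasts, had 99.6 and 96.7 against 179 and 121 (log2 0.61, SE 0.22, edgeR adjusted p = 0.631). In the other direction, Col4a1 of the basement membrane had 828 and 569 against 452 and 463 CPM, and Serpinh1, the chaperone of collagen, had 604 and 498 against 361 and 359. Col3a1, a fibrillar collagen, overlapped, with 706 and 863 against 1154 and 696 CPM.

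Markers of fibroblasts and macrophages had their highest sums in library A of 3 days. The 20 quiescent fibroblast markers summed to 4791 and 5228 CPM at 1 day and to 7614 and 3831 at 3 days. Of these 20, 1 (5%) was higher in both libraries of 3 days and 0 were lower in both, against 18.6% and 26.6% of all genes tested. Dcn, decorin of fibroblasts, had 844 and 1152 against 2166 and 846 CPM. The 19 resident macrophage markers summed to 1328 and 1718 against 2213 and 1142, and the 24 tested markers of monocytes and recruited macrophages to 845 and 929 against 1420 and 844. The libraries of 3 days lay on either side of those of 1 day in all 3 lists. Without library A of 3 days, their medians turned from 0.08, 0.16 and 0.36 to −0.37, −0.36 and −0.10. Immediate early genes, cytokines and cell cycle genes also had their highest sums in this library, at 1768, 734 and 592 CPM. The part of the cell mixture in these results was not tested. Smooth muscle and pericyte genes did not have their highest sum in library A of 3 days, with 4799 and 4126 against 3868 and 3743 CPM. The epicardial sum was 2070 and 2050 against 1825 and 1130 CPM, of which Clu alone held 1275 and 1097 against 676 and 616. The median of the epicardial list was 0.78, from −0.04 to 1.30 without 1 sham library. Of its 18 tested members, 3 (16.7%) were higher in both libraries of 3 days and 1 (5.56%) was lower in both. Endothelial and angiogenic genes had a median of 0.01, with 6 of 32 (18.75%) higher and 10 (31.25%) lower in both, near the shares over all genes. Vwf, the clotting factor stored in endothelium, had 170 and 161 against 146 and 66.9 CPM, and Cldn5, a tight junction protein, had 18.3 and 13.9 against 35.2 and 22.9. Markers of skeletal muscle that the heart should lack, Myh1, Myh2 and Myh4, were at 0 to 0.575 CPM in all 4 libraries. The full list of 18 skeletal muscle markers summed to 2423 and 2175 CPM at 1 day and 1644 and 1660 at 3 days. Of these sums, the creatine kinase gene Ckm alone held 2348 and 2096 against 1589 and 1609. Of its 8 tested members, 5 were lower in both libraries of 3 days and 0 higher in both (median −0.52).

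**Figure D5:**
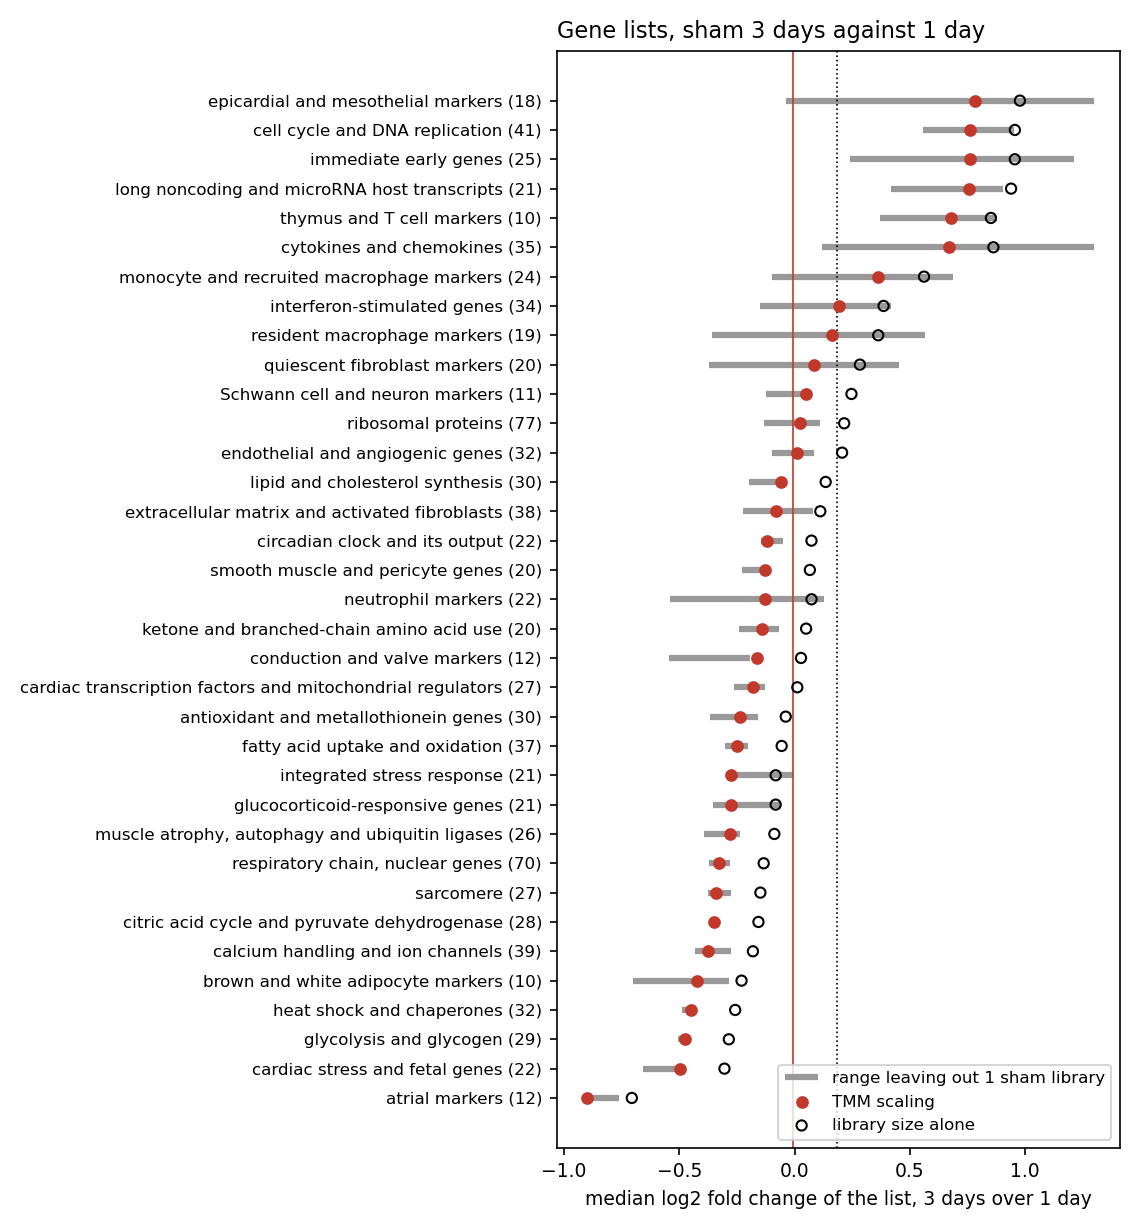
Median log2 fold change of 3 days over 1 day for each gene list with at least 10 tested members (number in brackets), with TMM scaling (red points) and with library size alone (open circles). Grey bars span the medians found when 1 sham library at a time was left out, and vertical lines mark the medians of all genes, −0.01 (red) and 0.18 (dotted).

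Long noncoding RNAs and microRNA hosts were higher in both libraries of 3 days for 11 of 21 tested members and lower in both for 0 (median 0.76, and 0.42 to 0.90 without 1 sham library). The shares over all genes tested were 18.6% higher and 26.6% lower in both. Kcnq1ot1, an imprinted antisense transcript, had 113 and 90.5 CPM at 1 day and 123 and 342 at 3 days. Neat1, the scaffold of nuclear paraspeckles, overlapped, with 349 and 292 against 322 and 861, and Meg3, another imprinted RNA, had 3.19 and 1.67 against 4.92 and 14.5. In these 3, as in Malat1 and Ttn, library B of 3 days was the highest, while Rn45s and Rpph1 were lowest in it. Gas5, a host of small nucleolar RNAs, had 27.2 and 33.7 against 62.7 and 47.0 CPM and was highest in library A. Lower at 3 days were 3 small nucleolar RNAs, which are in no list and were named for their difference: Snora31 had 10.95 and 12.1 against 4.60 and 2.23 CPM, Snora78 21.7 and 30.7 against 12.0 and 5.79, and Snora64 37.0 and 33.1 against 17.3 and 9.51. These small RNAs lie inside host genes, and their reads cannot be told apart from those of the hosts without the counting rule.

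The gene with the smallest adjusted p, 0.366 in edgeR, was Aldh1l1, an enzyme of folate metabolism at chr6:90550768-90599171. It had 3.48 and 4.08 CPM at 1 day and 24.6 and 44.8 at 3 days, from 60, 71, 460 and 843 counts (log2 3.20, SE 0.42, 95% interval 2.26 to 4.14). The 2 days were far apart in both quantifications, with 31, 41, 211 and 350 reads in the transcript tables, and DESeq2 on the sham libraries gave an adjusted p of 1.80e-18. The gene was in none of the lists and is named for its value. In the MI libraries it had 2.68 and 3.94 CPM at 1 day and 2.99 and 6.40 at 3 days. Clu, clusterin, a secreted chaperone in the epicardial list, had 1275 and 1097 CPM at 1 day and 676 and 616 at 3 days (log2 −0.88, SE 0.21, edgeR adjusted p = 0.631, DESeq2 on the sham libraries 0.000776). Asb2, a ubiquitin ligase subunit that degrades filamins, had 901 and 748 against 491 and 496 (log2 −0.74, DESeq2 0.0125). Both were lower in both libraries of 3 days.

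Clock genes gave no common direction, with 4 of 22 (18.2%) higher and 7 (31.8%) lower in both libraries. These shares were near those of all genes tested, 18.6% and 26.6%. The median of the clock list was −0.12, which turned to 0.07 under library size alone. Arntl, the activator of the clock, had 43.1 and 33.7 CPM at 1 day and 29.5 and 29.5 at 3 days. The output gene Dbp had 9.45 and 11.3 against 14.8 and 10.3, the repressor Nr1d1 61.7 and 53.5 against 56.8 and 48.4, and Per2 11.3 and 13.7 against 8.29 and 18.5. The days overlapped in the last 3, and the hour at which tissue was taken is not in the labels. Ribosomal protein genes were even, with 16 of 77 (20.8%) higher in both and 12 (15.6%) lower in both. Their median of 0.02 differed little from that of all genes under either scaling (0.22 against 0.18 with library size alone).

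The time effect in sham was set against that in MI by the interaction term of the same fit. Of 15508 genes, 2046 (13.2%) had a larger and 1753 (11.3%) a smaller log2 change from 1 to 3 days in MI than in sham, at an adjusted p under 0.05 in edgeR. These 3799 genes became 2235 or 1813 without library A or B of sham 1 day, and 3688 or 2310 without library A or B of sham 3 days. They became 5022 or 4987 without library A or B of MI 1 day, and 2159 or 1875 without library A or B of MI 3 days. For Top2a the effect in MI was larger by 5.59 on the log2 scale (adjusted p = 0.000684), with 1.95 and 7.63 CPM at 1 day and 577 and 667 at 3 days in MI. For Nppa it was larger by 1.27 (adjusted p = 0.0196), the MI libraries holding 372 and 580 against 495 and 515 CPM. For Aldh1l1 the effect in MI minus that in sham was −2.63 (adjusted p = 0.0257). For Myl7 and Hspa1b the interaction did not pass, at −1.58 and −1.59 (adjusted p = 0.659 and 0.221), which does not show that the time effects are alike.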

How the data were processed

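RNA of 8 ventricles was sequenced from both ends after removal of ribosomal RNA. The values analysed are deposited raw counts per gene symbol and total reads per transcript, the latter also whole-number counts of the authors. The submitters' processing notes name the aligners TopHat2 2.0.14 and Bowtie2 2.2.5, the counter HTSeq, SAMtools 0.1.2, FastQC, DESeq2 and the build mm10, without role or order. For the annotation release, the strand setting and the treatment of reads that match several places, nothing is given in the sources used here. Another 48 columns of values per library in the transcript tables were not used. Each day has its own table, and 24062 gene symbols were common to both. The 1-day sham columns share 1 name, so libraries are called A and B by column order, in the transcript tables too, and this names no mouse. Nothing says how the 2 mice of a group were housed or processed, so p-values measure the spread between these libraries.

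edgeR 4.0.16 (R 4.3.3) was fitted to all 8 libraries by surgery and day, with TMM scaling, its default filter on low counts (15508 genes kept) and the quasi-likelihood test, 2-sided, with Benjamini-Hochberg adjustment and a threshold of 0.05. The fit has 4 residual degrees of freedom. The script was tested on simulated data. Alternatives used DESeq2 1.42.0, limma-voom (limma 3.58.1), other scalings, filters and lengths, the transcript reads and each library left out. DESeq2 on the 4 sham libraries, edgeR's legacy option, the scaled transcript level and the Malat1 span were added after seeing the data. Gene level per length divides TMM-scaled CPM by the most used transcript. Libraries held 7382490 to 25041386 counts, and a gene with no count could still be at up to 0.174 CPM in the sham libraries (3 counts, counting error only). PCR copies were not marked by molecular identifiers.

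The samples, which were set by their labels, and the gene lists were chosen with earlier results of these data known. Genes were named by a rule: the 10 largest changes in each direction among called genes of at least 5 CPM, the leading member of each list, the first 20 by level per length, and always Myh6, Myh7, Nppa, Nppb, Arntl, Dbp, Nr1d1, Per2, Pdk4, Il6 and Postn. As no gene was called, the first clause found none, and the 10 largest in each direction among those called by DESeq2 on the sham libraries were added after their values were seen. Other list members were picked for the text after their values were seen. A result for some genes is not reported here. All 83 genes were matched to RefSeq (GRCm38.p6), whose promoters were read at the first start listed.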

Additional observations from a re-analysis of the deposited data

Results flagged for a closer look

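For 57 of the 83 genes named by rule, the change from 1 to 3 days differed between MI and sham in edgeR's interaction test at an adjusted p under 0.05. The values below are the log2 time effect in MI minus that in sham. It was lower in MI for 48 of these genes and higher for 9. They were picked by level, list or sham difference, and 13.2% of all genes tested had a higher and 11.3% a lower effect in MI.

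Among sarcomere and muscle genes the value was −3.88 for Ttn, −3.61 for Myh6, −3.49 for Myl2, −3.26 for Myl3, −2.76 for Myh7, −2.70 for Tnni3, −2.49 for Tnnt2, −2.16 for Actc1, −2.03 for Des, −1.92 for Tnnc1 and −1.75 for Tpm1. It was −3.00 for the calcium pump gene Atp2a2, −2.60 for its inhibitor Pln, −3.20 for the myoglobin gene Mb, −3.91 for the creatine kinase gene Ckm and −2.81 for its mitochondrial relative Ckmt2. For the muscle regulators Perm1, Asb2 and Fhl2 it was −2.70, −1.22 and −1.18.

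Among genes of energy supply it was −3.19 for Cox7a1, −2.43 for Cox8b and −1.44 for Cox4i1 of cytochrome oxidase. It was −1.64 for Atp5b and −1.55 for Atp5a1 of ATP synthase, −2.03 for the nucleotide carrier gene Slc25a4, −1.15 for Mdh1, −1.12 for Aldoa and −1.18 for Oxct1. For the lipid genes Plin4, Lpl and Dgat2 it was −4.01, −3.47 and −3.19, and for Pdk4 it was −5.03, the lowest of the 57. It was −1.28 for the heme gene Fech, −1.78 for Glul and −1.95 for Sod2.

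Among signalling and early genes it was −4.23 for Il6, −3.24 for Apold1, −2.96 for Btg2, −2.63 for Aldh1l1, −3.80 for Atcay and −1.16 for Atf4. For the clock genes Per2, Nr1d1 and Dbp it was −2.89, −2.32 and −2.18. It was −1.98 for Malat1, −1.74 for Nppb, −1.75 for Tbx3 and −2.05 for Gsn. Il6, Apold1, Btg2, Aldh1l1 and Atcay were higher in both sham libraries of 3 days, and that rise enters the value with a minus sign. All of them but Il6 were named for their sham difference. Of their time effects in MI alone, only that of Btg2 passed edgeR's test (log2 −1.23, adjusted p = 0.0498). The effect in MI alone was −0.55 for Il6 and 0.57 for Aldh1l1.

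The 9 genes with a higher effect in MI were Top2a at 5.59, Col3a1 at 4.21, Lyz2 at 3.63, Postn at 3.63, Snora31 at 3.55, Snora78 at 3.51, Snora64 at 3.12, Nppa at 1.27 and Rpl4 at 0.85. For Nppa and the 3 small nucleolar RNAs the sham libraries were lower at 3 days than at 1 day.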

How the results depend on the processing

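No paired analysis was possible because the count columns carry no replicate number. Unique reads in place of total reads for the mitochondrial share were not run. The count of called genes for 3 days against 1 day was 0 with RLE size factors, library size alone, no filter on low counts, genes averaging 5 CPM or more, the legacy option, limma-voom and the transcript reads. It was 1 with the 4 sham libraries only, 60 with DESeq2 on 8 libraries and 117 with DESeq2 on the 4 sham libraries, and 35 genes were called by both DESeq2 fits. Leaving out 1 library at a time gave 0 to 2 calls, the 2 being Myl7 and Myl4 without either MI library of 1 day. For the time effect in MI minus that in sham, leaving out 1 library gave 1813 to 5022 called genes against 3799. Ranking by CPM with no length kept 13 of the first 20 genes, the longest transcript kept 19 and the level from transcript reads kept 17. Tests with fewer libraries have fewer degrees of freedom, but without library A or B of MI 1 day the interaction calls rose to 5022 or 4987. The cause of these differences was not tested.

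Log2 fold changes near 0 changed sign. With library size alone, Cxcl12 was 0.022, Gsn 0.20, Ttn 0.12, Lpl 0.10, Fech 0.11, Tnnt2 0.090, Pln 0.16, Cox7a1 0.090, Cox8b 0.021 and Nr1d1 0.064. Gsn was 0.014 with no low-count filter, 0.034 with genes of 5 CPM or more, 0.033 with sham libraries only, 0.040 with DESeq2 on these and 0.048 with transcript reads. Pln was 0.014 with genes of 5 CPM or more, 0.013 with sham libraries only and 0.018 with DESeq2 on these. Per2 was −0.00351 with limma-voom.

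Leaving out 1 library at a time gave ranges across 0 for further genes. They were −0.17 to 0.56 for Col3a1, −0.0070 to 0.51 for Dbp, −0.34 to 0.80 for F13a1, −0.56 to 0.39 for Gsn and −0.029 to 0.48 for Lamp3. For Lpl the range was −0.22 to 0.052, for Lyz2 −0.16 to 0.81, for Myh7 −0.076 to 0.23, for Nppb −0.31 to 0.37 and for Pdk4 −0.69 to 0.13. For Per2 it was −0.59 to 0.57, for Plin4 −0.74 to 0.085, for Pln −0.14 to 0.074, for Pmp22 −0.15 to 0.23 and for Rpl4 −0.14 to 0.20. For S100a9 it was −0.51 to 0.62, for Tnnt2 −0.22 to 0.039 and for Ttn −0.73 to 0.40.

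With 2 libraries a day, the median standard error of a log2 fold change was 0.276 over all genes and 1.09 in genes under 1 CPM, so small changes of rare RNAs were not detectable at this depth. Each day has its own table, and the day cannot be told apart from it.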
